A study of Mus musculus with 24 samples.

Results

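The genes described here are 39 genes of the endoplasmic reticulum (ER) and of its stress response, the unfolded protein response, in T11 cells, which are claudin-low mammary tumour cells of the mouse. They were picked by gene symbol from the pathway, with earlier results of these data known. All 39 had a row among the 23235 rows of the deposited expression table, and 37 of them were among the 10262 genes whose mean over the 8 groups reached 1 FPKM. FPKM is the number of sequenced fragments scaled by transcript length and by library size, so levels given in FPKM can be set beside each other across genes. The other members, Ero1lb and Derl3, lay under that minimum and are given by their levels.

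RNA was sequenced from cells that had received PBS, Omomyc, FPP-1746 or the fusion FPP-1746-Omomyc, the peptides at 5 µM, for 3 h or for 6 h. Each of these 8 groups had 3 biological replicates, 24 samples in all, and every sample is labelled as expressing a luciferase gene. Omomyc is an altered form of the MYC leucine zipper region that takes the place of MYC in dimers with MAX and on DNA, and FPP-1746 is a peptide used to carry cargo into cells. The comparisons ask how the fusion, and each of its parts alone, altered transcript levels in a single cell line.

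The lumen of the ER folds secreted and membrane proteins. Chaperones of the HSP70 and HSP90 classes, the lectins that hold glycoproteins and the disulfide isomerases do the folding, and proteins that fail to fold are passed back to the cytosol for degradation. When unfolded proteins collect, the sensors IRE1 (gene Ern1), PERK (Eif2ak3) and ATF6 (Atf6) signal to the nucleus. IRE1 splices the Xbp1 mRNA, ATF6 is cut to release a transcription factor, and PERK phosphorylates eIF2α, which lowers translation in general while favouring that of ATF4. Spliced XBP1 and cleaved ATF6 raise the chaperones and the degradation genes.

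The deposited table held 1 averaged column per group, so no spread between replicates was seen, no test was run, and every difference below has no replicate check. Differences are log2 ratios of FPKM + 1, and a gene was counted as higher or lower where the ratio was at least 2-fold. The column sums lay between 445657 FPKM, with the fusion at 6 h, and 594951 FPKM, with the fusion at 3 h. The PBS columns summed to 486989 FPKM at 3 h and 468758 FPKM at 6 h. Both extremes were thus fusion columns, above PBS at 3 h and below it at 6 h. In each column 10035 to 10288 genes reached 1 FPKM. The 11 mesenchymal or claudin-low markers were all above the minimum, with a summed level of 8010 to 12600 FPKM. Of 10 epithelial markers none was, their sum was 0.0469 to 0.197 FPKM, and 4 were at 0 in every column. Of 8 macrophage markers, Cd14 and Cd68 were above the minimum. The sum of the list was 81.0 FPKM with the fusion at 3 h and 121 FPKM at 6 h against a lowest column of 11.2 FPKM. Nearly all of it in the fusion columns was Cd14, at 77.4 and 118 FPKM, while Cd68 was at 3.49 and 2.75 FPKM. The macrophage genes Ptprc and Csf1r did not pass 0.0256 and 0.0523 FPKM in any column, and Emr1 was at 0 in all of them.

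With the fusion at 3 h, the ER genes as a set stood above PBS: 34 of the 37 had a ratio above 0, with a median of 0.48. Over all tested genes the median was 0.0034 and 50.2% were above 0. The exceptions were Sel1l, Derl2 and Ssr1. In bulk RNA, fewer cells with a transcript and less of it per cell cannot be told apart. Under quantile normalisation the count above PBS was 28 of 37, because Canx, Pdia4, Txndc5, Manf, Sec61a1 and Ostc were then below 0, and the median was 0.18. At 6 h the set was divided, with 12 above PBS and 25 below and a median of -0.19, against a median of -0.03 and 47.9% above 0 over all tested genes. A small number of genes stood far above PBS at both times, among them Herpud1, Dnajb9 and Ero1l.

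By the 2-fold rule, 4 of the 37 were higher with the fusion than in PBS at 3 h and none was lower, where 6.13% of all tested genes were higher and 4.42% lower. At 6 h, 5 were higher and 1 was lower, where 7.13% of all tested genes were higher and 3.34% lower. As a share of the 37, the higher genes made up 10.8% at 3 h and 13.5% at 6 h. These counts are small and not far from the share over all genes, so the counts past 2-fold are no result about the ER genes as a set. What the ER genes showed at 3 h was a shift of most members by less than 2-fold.

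**Figure D1:**
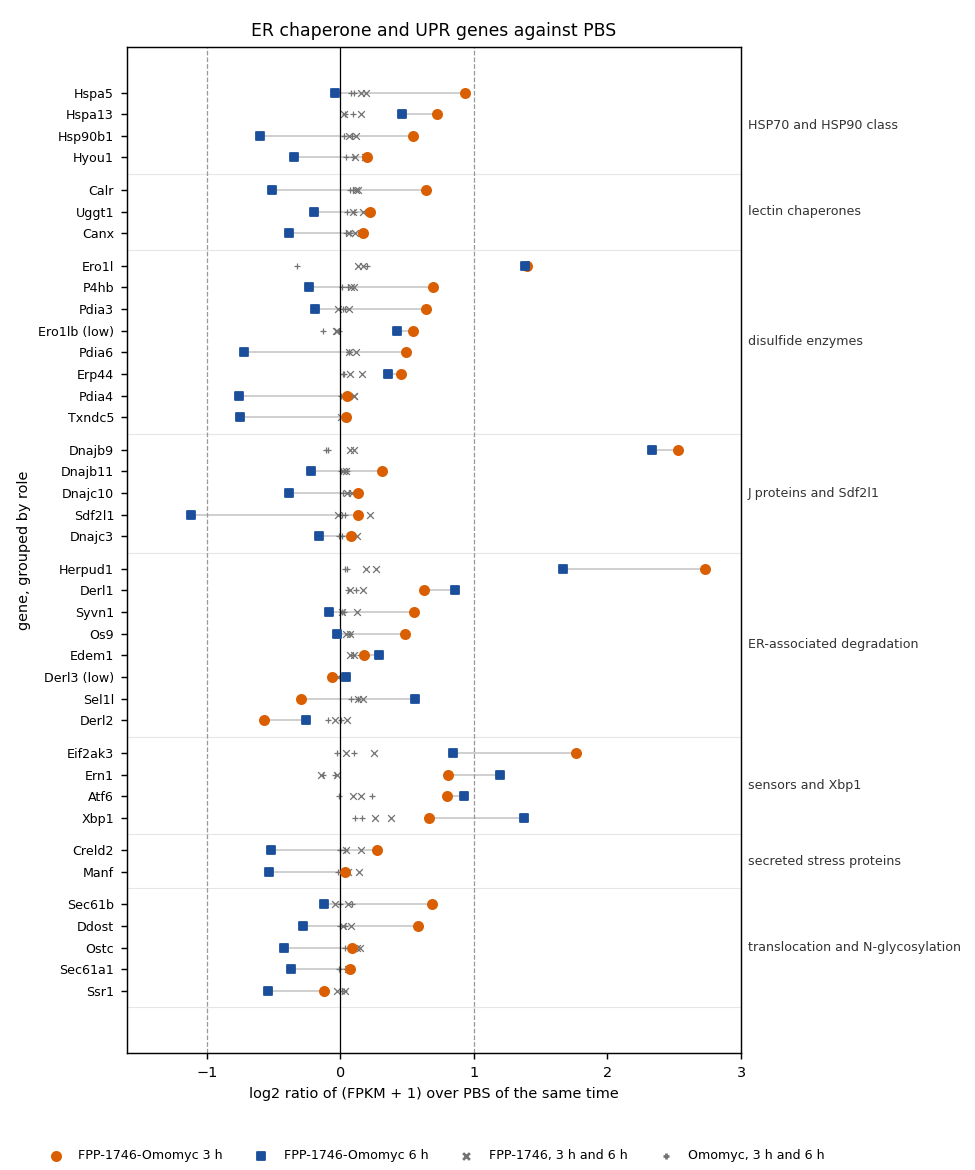
Log2 ratio of FPKM + 1 to PBS of the same time (horizontal) for each of the 39 ER genes (rows, grouped by role). Circles mark the fusion at 3 h and squares the fusion at 6 h, while crosses (FPP-1746) and plus signs (Omomyc) cover both times. Dashed lines lie at 2-fold, and Ero1lb and Derl3 are labelled as low. Herpud1 has the highest ratio, 2.73 with the fusion at 3 h, while the symbols of Omomyc and FPP-1746 alone lie between -0.33 and 0.38.

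The promoters were searched for the elements through which the pathway is known to act. Promoter windows of RefSeq on GRCm38.p6, from 250 bases before to 50 bases after the start, were found for 32 of the 39 genes. Those not matched were Hspa13, Hyou1, Derl1, Atf6, Manf, Sec61a1 and Ostc. The ER stress response element, CCAAT and CCACG with 9 bases of any kind between them, is bound by ATF6 and XBP1 together with NF-Y. It was found in 10 of the 32 (31.2%): Hspa5, Hsp90b1, Calr, Canx, Pdia6, Ero1lb, Dnajc3, Syvn1, Derl3 and Creld2. Of the 27025 genes with a window 0.137% held it. The 8 of these genes that were tested were all above PBS with the fusion at 3 h and below it at 6 h, with medians of 0.52 and -0.45, except that Canx at 3 h and Hspa5 at 6 h changed sides under quantile normalisation. None of the 8 passed 2-fold against PBS at either time. The 22 tested genes without a match had medians of 0.47 and -0.15 and held every gene with a window that passed 2-fold against PBS. Between the 3 h and 6 h fusion columns, Hspa5, Hsp90b1, Calr and Pdia6, which hold the element, did pass 2-fold. So did Sdf2l1 and Herpud1, in which this form was not found. All of these were lower at 6 h, where 4.92% of all tested genes were lower. Under quantile normalisation fewer ER genes passed 2-fold, with no excess over the background, as given below. A match describes the letters in this window, and binding was not measured.

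The second form of the element, ATTGG and CCACG with 1 base between them, was found in Dnajb11 and Herpud1 (0.0444% of all genes with a window), and the C/EBP-ATF composite element, TGATGNAA, the kind of site bound by ATF4, in Txndc5 and Herpud1 (4.51%). The XBP1 element TGACGTGG was found in Txndc5 (0.714%). The E-box CACGTG, which MYC and Omomyc bind, was in Calr, Txndc5, Dnajb9, Derl3 and Ssr1, or 15.6% of the members against 8.09% of all genes with a window. The short core CCACG, which lies within the first, second and XBP1 elements and overlaps the E-box in CCACGTG, was in 81.2% of the members and 35.5% of all genes with a window. None of these motifs was found in the windows of 6 members, Uggt1, Pdia3, Dnajc10, Eif2ak3, Xbp1 and Sec61b. All motifs were searched on both strands.

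The 250 bases before the start are given for 4 genes, 5′ to 3′ on the gene's strand: Hspa5 and Pdia6, which hold the ER stress response element and were above PBS at 3 h only, and Herpud1 and Dnajb9, the genes with the highest ratios. They lie at chr2:34771840-34772089 (plus strand, Hspa5), chr12:17266339-17266588 (plus, Pdia6), chr8:94386179-94386428 (plus, Herpud1) and chr12:44210069-44210318 (minus, Dnajb9) on GRCm38.p6, as RefSeq gives them. Capitals mark the ER stress response element in Hspa5 and Pdia6, the C/EBP-ATF element (read on the opposite strand) followed by the second form of the element in Herpud1, and the E-box joined to a core CCACG, followed by a second core, in Dnajb9.
Hspa5: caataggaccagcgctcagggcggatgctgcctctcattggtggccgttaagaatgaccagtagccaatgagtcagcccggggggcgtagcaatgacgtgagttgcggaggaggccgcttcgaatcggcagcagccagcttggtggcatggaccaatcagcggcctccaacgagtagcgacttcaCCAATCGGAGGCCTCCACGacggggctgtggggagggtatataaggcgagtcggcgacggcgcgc
Pdia6: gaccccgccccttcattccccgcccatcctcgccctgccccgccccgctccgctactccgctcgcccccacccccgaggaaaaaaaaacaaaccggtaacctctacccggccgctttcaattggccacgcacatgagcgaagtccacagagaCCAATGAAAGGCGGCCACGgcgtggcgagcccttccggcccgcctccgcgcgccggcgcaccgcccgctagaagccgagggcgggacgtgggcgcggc
Herpud1: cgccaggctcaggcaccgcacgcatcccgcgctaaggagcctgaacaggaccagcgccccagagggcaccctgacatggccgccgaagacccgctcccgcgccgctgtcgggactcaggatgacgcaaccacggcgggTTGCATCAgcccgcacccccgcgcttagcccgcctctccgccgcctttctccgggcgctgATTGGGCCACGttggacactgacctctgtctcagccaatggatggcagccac
Dnajb9: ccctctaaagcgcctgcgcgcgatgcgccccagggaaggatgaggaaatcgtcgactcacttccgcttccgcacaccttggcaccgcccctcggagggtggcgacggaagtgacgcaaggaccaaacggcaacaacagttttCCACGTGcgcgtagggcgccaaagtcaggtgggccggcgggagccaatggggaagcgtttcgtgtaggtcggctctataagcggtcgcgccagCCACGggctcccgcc
The element begins 65 bases before the start in Hspa5 and 98 bases before it in Pdia6. The second form begins 52 bases before the start in Herpud1, and the E-box 107 bases before it in Dnajb9.

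Among the HSP70 and HSP90 class chaperones the level was high in every column. Hspa5 encodes BiP, the HSP70 of the ER lumen, which also binds and holds back the stress sensors. It measured 552 FPKM in the PBS column, 582 with Omomyc, 613 with FPP-1746 and 1054 for the fusion at 3 h, and 493, 530, 562 and 479 FPKM in the same order at 6 h. The fusion at 3 h was the 1 column that stood apart, at a ratio of 0.93 (1.91-fold of FPKM + 1), and the fusion at 6 h was the lowest of the 8 columns, at -0.04. The 3 h ratio was 1.01 where the mean of both PBS columns was the reference. Under quantile normalisation, which gives every column the same distribution of values, it was 0.40, and the 6 h ratio was 0.17.

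Hsp90b1, which encodes GRP94, the HSP90 of the ER, had 471, 499, 493 and 688 FPKM at 3 h and 447, 456, 486 and 294 FPKM at 6 h, again in the order PBS, Omomyc, FPP-1746, fusion. Its highest and its lowest column were both fusion columns, with ratios to PBS of 0.55 at 3 h and -0.60 at 6 h. Hyou1, a large HSP70-related protein that works with BiP, had the same order on a smaller scale, with ratios of 0.20 and -0.35. Hspa13, another HSP70 family member, differed from these in that it was above PBS at both times, at 25.8 against 15.2 FPKM at 3 h and 21.6 against 15.5 FPKM at 6 h. The median of the 4 genes was 0.64 at 3 h and -0.19 at 6 h.

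The lectin chaperones Calr (calreticulin) and Canx (calnexin) hold glycoproteins during folding, and Uggt1 puts a glucose back on those that are not yet folded. Calr stood at 586, 625, 644 and 916 FPKM at 3 h and at 608, 639, 659 and 427 FPKM at 6 h. Only the fusion columns were far from the rest, with ratios of 0.64 and -0.51. Canx had ratios of 0.17 and -0.38, and Uggt1 of 0.22 and -0.19. All 3 were above PBS at 3 h and below it at 6 h in the table as deposited, with Canx below 0 at 3 h under quantile normalisation.

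The disulfide enzymes form and rearrange the bonds between cysteines. Pdia6, an isomerase that also acts on the sensors, had 229, 240, 239 and 321 FPKM at 3 h and 219, 228, 237 and 132 FPKM at 6 h. The fusion column was the highest at 3 h (0.49) and the lowest at 6 h (-0.72). P4hb and Pdia3, the most abundant isomerases here at 589.8 and 302 FPKM in PBS at 3 h, had 3 h ratios of 0.69 and 0.64 and 6 h ratios of -0.24 and -0.19. Pdia4 and Txndc5 differed little from PBS at 3 h, at 0.05 and 0.04, and were at -0.76 and -0.75 at 6 h. Erp44, which retains its client proteins in the early secretory pathway, was above PBS at both times, at 0.45 and 0.36. The median of the 7 tested genes was 0.49 at 3 h and -0.24 at 6 h. Under quantile normalisation the 3 h medians of the abundant folding roles were smaller, at 0.26 for the HSP70 and HSP90 class, 0.06 for the lectins and 0.24 for the disulfide enzymes, while that of the sensors and Xbp1 was 0.75.

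Ero1l, the oxidase that recharges the isomerases, was the member of this role that passed 2-fold against PBS. It had 38.0 FPKM in the PBS column, 43.8 with Omomyc, 42.9 with FPP-1746 and 102 for the fusion at 3 h, and 36.2, 28.7, 39.8 and 95.8 FPKM at 6 h. Both fusion columns stood more than 50 FPKM above the next column of their time, and the ratios were 1.39 and 1.38. Its paralog Ero1lb was near the floor of the table but had the same high columns, at 0.679, 0.670, 0.646 and 1.44 FPKM at 3 h and 0.645, 0.505, 0.609 and 1.20 FPKM at 6 h. With a mean under 1 FPKM it was not tested.

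Dnajb9 (ERdj4), a J-domain partner of BiP that holds IRE1 inactive, had a ratio above 2 at both times. Its levels were 10.0, 9.26, 10.8 and 62.8 FPKM at 3 h and 7.59, 7.05, 8.02 and 42.2 FPKM at 6 h. The 2 fusion columns were separate from the other 6, which lay between 7.05 and 10.8 FPKM, and the ratios were 2.53 and 2.33. At 3 h the other J proteins were above PBS by less than 2-fold, with ratios of 0.31 for Dnajb11, 0.13 for Dnajc10 and 0.08 for Dnajc3. They were below PBS at 6 h, in the same order at -0.22, -0.39 and -0.16.

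Sdf2l1, which works in a complex with J proteins and BiP, was the 1 member lower by 2-fold than PBS. It measured 20.1, 20.6, 19.8 and 22.1 FPKM at 3 h and 20.0, 20.2, 23.6 and 8.68 FPKM at 6 h. The fusion at 6 h was far below the other 7 columns, at a ratio of -1.12. With a pseudocount of 5 in place of 1 that ratio was -0.87, which is short of 2-fold.

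ER-associated degradation takes misfolded proteins out of the lumen to the proteasome. Herpud1, which organises the membrane complex for this and whose promoter is given above, had 25.2, 26.1, 30.6 and 173 FPKM at 3 h and 25.6, 26.2, 29.3 and 83.3 FPKM at 6 h. It had the highest ratio of any member at 3 h, 2.73, or 6.64-fold of FPKM + 1, and stood at 1.67 at 6 h. Derl1, a membrane protein of the same export route, was above PBS at both times, at 61.5 against 39.5 FPKM and at 61.6 against 33.5 FPKM. Within the complex around the ubiquitin ligase the signs differed: Syvn1, the ligase, had ratios of 0.55 and -0.09, and its partner Sel1l had -0.29 and 0.56. Derl2 was below PBS at both times, at -0.57 and -0.26. The lectins Os9 and Edem1 had ratios of 0.48 and 0.17 at 3 h and of -0.02 and 0.29 at 6 h. Derl3 did not pass 0.0883 FPKM in any column. The median of the 7 tested genes was 0.48 at 3 h and 0.29 at 6 h.

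The 3 sensors and Xbp1 were the role in which all members were above PBS at both times, with medians of 0.80 at 3 h and 1.06 at 6 h. Eif2ak3 had 2.86, 2.80, 2.97 and 12.1 FPKM at 3 h and 2.89, 3.18, 3.63 and 5.98 FPKM at 6 h. The fusion at 3 h stood above all other columns, at a ratio of 1.77, and the fusion at 6 h was next, at 0.84. Ern1 had the reverse order of times, at 6.13, 5.93, 6.00 and 11.5 FPKM at 3 h and 6.07, 5.46, 5.38 and 15.2 FPKM at 6 h. Its ratio passed 2-fold at 6 h (1.19, or 0.87 with a pseudocount of 5) and not at 3 h (0.81).

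Atf6 had 26.3, 31.2, 29.4 and 46.4 FPKM at 3 h and 15.8, 15.6, 16.9 and 30.9 FPKM at 6 h. The fusion was the highest column of each time, at ratios of 0.79 and 0.93, but the level in PBS itself was lower at 6 h than at 3 h (-0.70). Against the mean of both PBS columns the ratio was 1.10 at 3 h and 0.53 at 6 h. Xbp1 had 24.7, 26.8, 29.7 and 39.7 FPKM at 3 h and 18.5, 20.8, 24.4 and 49.6 FPKM at 6 h. At each time the order was PBS, Omomyc, FPP-1746 and the fusion from low to high, and the fusion's ratio to PBS was 0.66 at 3 h and 1.37 at 6 h. The table gives 1 value per gene, so the spliced and the unspliced Xbp1 mRNA are not told apart.

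**Figure D2:**
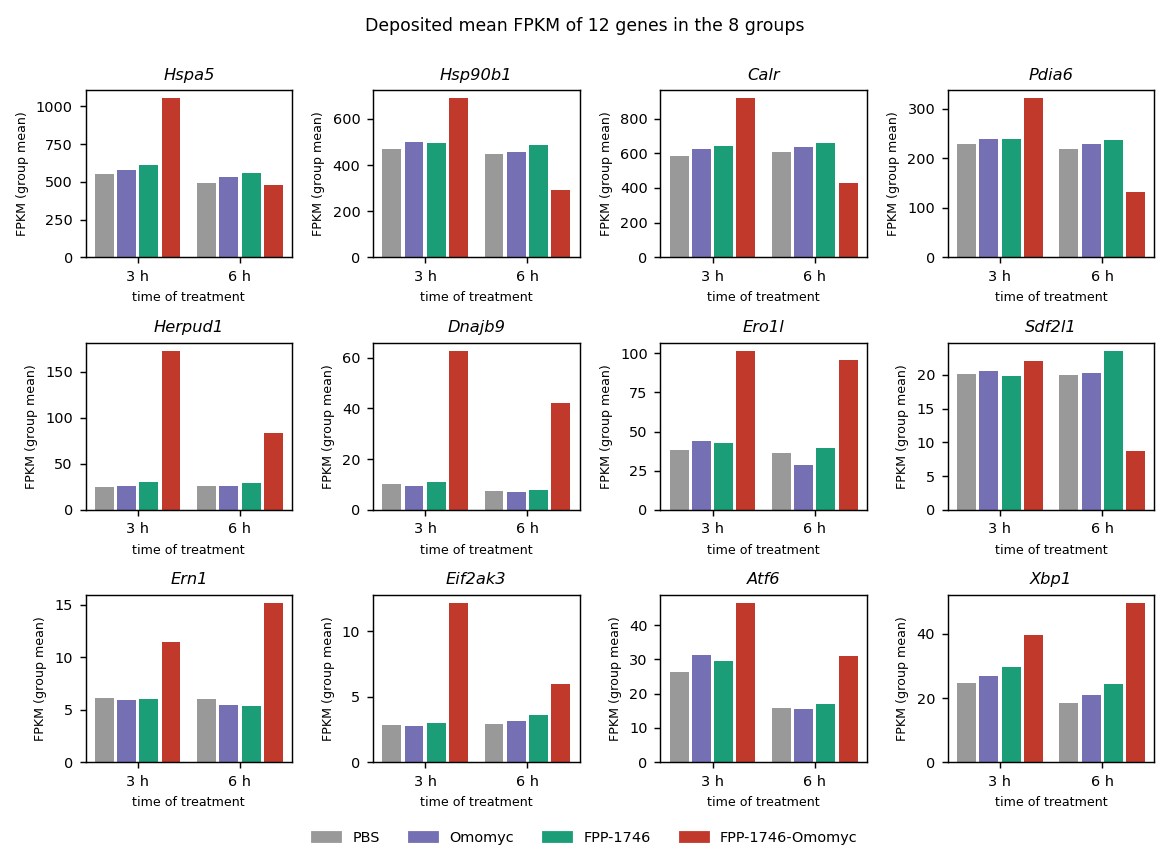
Deposited mean FPKM of 12 ER genes (vertical axes from 0) at 3 h and 6 h in the PBS control and with each of the 3 peptides, 1 bar per group and no error bars because each bar is 1 averaged column. Herpud1, Dnajb9 and Ero1l are high in both fusion bars, Hspa5, Hsp90b1, Calr and Pdia6 only in the 3 h fusion bar, and Sdf2l1 is low in the 6 h fusion bar (8.68 FPKM).

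Manf and Creld2 encode proteins that ER-stressed cells secrete. Creld2 was at 84.4 against 69.6 FPKM at 3 h and at 47.3 against 68.1 FPKM at 6 h, ratios of 0.27 and -0.52. Manf had ratios of 0.03 and -0.54. Both were therefore below PBS at 6 h, while at 3 h Creld2 was above it and Manf close to it.

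Of the genes for entry into the ER and N-glycosylation, Sec61b, a subunit of the translocation channel, and Ddost, a subunit of the oligosaccharyltransferase, were above PBS at 3 h at 0.68 and 0.58. Sec61a1, the pore subunit, was at 0.07, Ostc at 0.09 and Ssr1, of the translocon-associated complex, at -0.12. At 6 h all 5 were below PBS, from -0.12 for Sec61b to -0.54 for Ssr1. The median of the 5 went from 0.09 at 3 h to -0.37 at 6 h, and the 3 h median was -0.13 under quantile normalisation.

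Set against the 6 h column, 23 of the 37 ER genes (62.2%) were above PBS at 3 h and below it at 6 h, as were 20.5% of all tested genes. Among the 1912 tested genes whose mean reached 50 FPKM the share was 35.6%, and among the 19 ER genes of that level it was 17, or 89.5%. Under quantile normalisation the pattern held for 16 of the 37 ER genes (43.2%) and 18.8% of all tested genes, and at that level for 10 of the 19 (52.6%) and 19.1% of the 1912. The median over those 1912 genes was 0.10 at 3 h and -0.26 at 6 h, while it was 0.49 and -0.37 over the 19 ER genes. Over the 18 less abundant ER genes it was 0.47 and 0.32. The level of 50 FPKM was chosen after the values were seen. Another 11 of the 37 were above PBS at both times, Derl2 and Ssr1 were below at both, and Sel1l was below and then above.

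**Figure D3:**
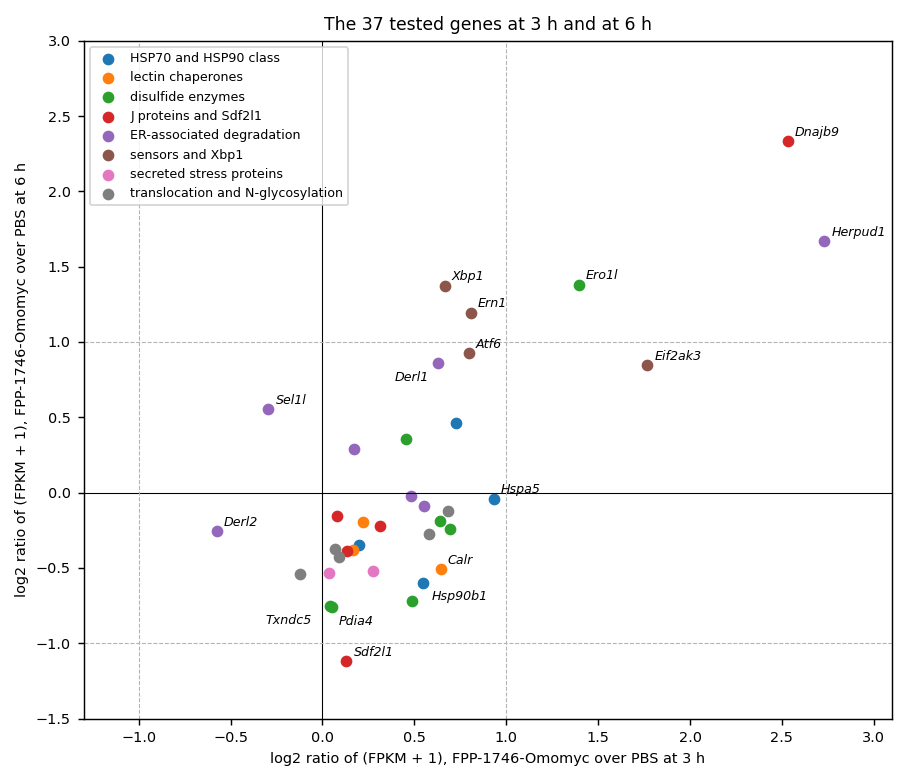
Log2 ratio of FPKM + 1 of the fusion to PBS at 3 h (horizontal) and at 6 h (vertical) for the 37 tested ER genes, coloured by role, with dashed lines at 2-fold. As deposited, 23 points lie to the right of 0 and below 0 (16 under quantile normalisation), while the sensors, Xbp1, Herpud1, Dnajb9 and Ero1l lie above 0 on both axes.

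Compared directly, 6 ER genes were lower with the fusion at 6 h than at 3 h and none was higher, where 4.92% of all tested genes were lower and 7.27% higher. They were Pdia6 (-1.28), Sdf2l1 (-1.25), Hsp90b1 (-1.22), Hspa5 (-1.14), Calr (-1.10) and Herpud1 (-1.05), and under quantile normalisation 2 ER genes were lower, where 4.95% of all tested genes were, which is no excess over the background. Over the 37 the median was -0.60, and 32 were lower at 6 h. In PBS none of the 37 differed by 2-fold between the times, where 0.867% of all tested genes did, and the median was -0.06. The summed level of the 39 genes was 6852 FPKM with the fusion and 4544 FPKM with PBS at 3 h, and 3698 and 4391 FPKM at 6 h. As a share of all FPKM in the column that was 1.15% and 0.933% at 3 h and 0.830% and 0.937% at 6 h.

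The parts of the fusion on their own gave no ER gene past 2-fold. With FPP-1746 alone 0 of 37 differed from PBS at 3 h and 0 at 6 h, where 0.614% and 0.555% of all tested genes did, and with Omomyc alone 0 of 37 at each time, where 0.614% and 0.682% did. Most of those few genes were records of small RNAs: without the 140 such records the shares were 0.0296% and 0.0494% with FPP-1746 and 0.00988% and 0.0593% with Omomyc. With FPP-1746, 31 of the 37 were above PBS at 3 h (median 0.07) and 36 at 6 h (median 0.12), with Ern1 (-0.15) as the exception, while 52.8% and 52.3% of all tested genes were above. The highest of these ratios were 0.27 for Herpud1 at 3 h and 0.38 for Xbp1 at 6 h. With Omomyc, 31 were above PBS at 3 h and 29 at 6 h, with medians of 0.04 and 0.03, while 54.9% and 50.7% of all tested genes were above. The ratio farthest from 0 was 0.24 for Atf6 at 3 h and -0.33 for Ero1l at 6 h. These comparisons share the PBS column of their time, so they are not independent of each other.

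The fusion was also set against each part at the same dose and time. Against FPP-1746 at 3 h, 4 ER genes were higher, where 5.86% of all tested genes were higher. They were Herpud1 (2.46), Dnajb9 (2.43), Eif2ak3 (1.73) and Ero1l (1.23). At 6 h, 4 were higher, where 6.94% of all tested genes were, namely Dnajb9 (2.26), Herpud1 (1.48), Ern1 (1.34) and Ero1l (1.25), and Sdf2l1 (-1.34) was lower, where 3.21% were. Xbp1 stood just short of 2-fold at 0.99. Against Omomyc at 3 h, Herpud1 (2.68), Dnajb9 (2.64), Eif2ak3 (1.79) and Ero1l (1.20) were higher, where 5.56% of all tested genes were. At 6 h the 5 higher genes were Dnajb9 (2.43), Ero1l (1.71), Herpud1 (1.63), Ern1 (1.32) and Xbp1 (1.21), where 6.59% of all tested genes were higher, and the 1 lower gene was Sdf2l1 (-1.13), where 3.07% were lower.

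Other genes of the same pathways were read from 6 further lists. The list named the PERK-ATF4 arm holds genes placed downstream of phosphorylated eIF2α, and its ratios stood apart from those of the folding genes. With the fusion 10 of its 15 genes were past 2-fold at 3 h and 12 at 6 h, all of them higher, with medians of 1.96 and 2.26. The name is that of the list, and phosphorylation of eIF2α was not measured. Over all tested genes 6.13% were higher at 3 h and 7.13% at 6 h, and the list was chosen with earlier results of these data known, so its direction is not independent evidence. The highest at 3 h were Atf3 (6.41), Chac1 (4.32), Ppp1r15a (3.12) and Sesn2 (3.11), and at 6 h Atf3 (4.53), Trib3 (4.11), Chac1 (3.34) and Ddit3 (2.70). The kinase PERK is not the only one that feeds this arm, and the remaining eIF2α kinase genes were in the list of other signalling genes. With the fusion their ratios to PBS were 0.04, -0.40 and -0.39 at 3 h for Eif2ak1, Eif2ak2 and Eif2ak4. At 6 h they were 0.50, -0.60 and -0.25 in the same order. Kinase activity was not measured, and which kinase acted was not tested. None of the 13 tested genes of the list of other signalling genes passed 2-fold at either time, with medians of -0.17 and -0.25.

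The other ER folding enzymes had medians close to those of the members, 0.46 at 3 h and -0.18 at 6 h over 26 genes, and 1 was past 2-fold. That was Mogs, the glucosidase that trims the first glucose from N-glycans, at 15.1 against 40.6 FPKM at 3 h (-1.37). Of 22 other degradation genes, Selk, a selenoprotein of the Derlin complex, was higher at 6 h at 74.0 against 31.9 FPKM (1.19), and none was past 2-fold at 3 h. The medians of that list were 0.08 and 0.02. None of 23 other translocation and N-glycosylation genes and none of 20 ER export and retrieval genes passed 2-fold at either time. Their medians were 0.12 and 0.04 at 3 h and -0.21 and -0.18 at 6 h.

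**Figure D4:**
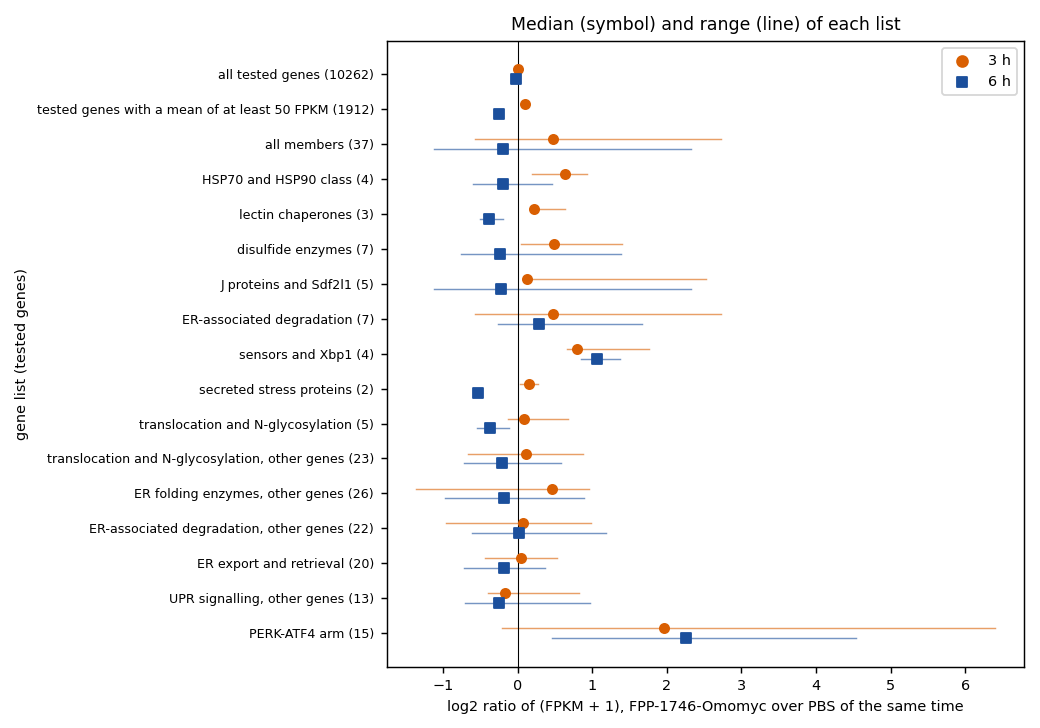
Median (symbol) and range (line) of the log2 ratio of FPKM + 1 of the fusion to PBS at 3 h (circles) and 6 h (squares) for each role of the ER genes, the 6 further lists and, as medians alone, all tested genes and those of at least 50 FPKM. The PERK-ATF4 arm lies far to the right at both times (1.96 and 2.26), while the folding lists lie right of 0 at 3 h and left of 0 at 6 h.

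In the build of the deposited table, mm9, the genes that passed 2-fold against PBS lie on several chromosomes. Herpud1 is on chromosome 8 at 96910400 to 96919258, Dnajb9 on chromosome 12 at 45306884 to 45311055, Ero1l on chromosome 14 at 45902762 to 45938247 and Eif2ak3 on chromosome 6 at 70794521 to 70855234. Ern1 and Xbp1 are both on chromosome 11, at 106258934 to 106349110 and at 5420970 to 5425875, and Sdf2l1 is on chromosome 16 at 17130231 to 17132476. These are whole gene spans. Pdia4, Pdia6 and Syvn1 share a locus with another record in the table, as do Ddit3 and Eif2ak1 of the further lists. The values of these genes may be divided between the records.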

How the data were processed

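RNA-seq was analysed from 24 samples in 8 groups of 3. The authors deposited 1 table of FPKM averaged over the replicates of each group. Cufflinks 2.2.1 and Cuffnorm 2.2.1, STAR 2.1.3, bcl2fastq 2.17.1.14 and the build mm9 are listed per the submitters' processing notes. Order, settings, library scaling and use of strand: not given in the sources used here. The 3 samples titled as the fusion at 6 h carry a treatment tag of 3 h, and the title and the column name were followed. Values of single replicates and protein sequences were not analysed here.

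Log2 ratios of FPKM + 1 were computed for genes whose mean of the 8 columns reached 1 FPKM, and 2-fold was the size rule for higher and lower genes. This scale understates the change of low genes. The members, their roles and the further lists were chosen with earlier results of these data known. Members past 2-fold in any comparison, the sensors, Hspa5 and Hsp90b1 are given in all 8 columns. Of each further list, the genes past 2-fold for the fusion are named, at most 4 per direction and time. Table starts were raised by 1, since 7165 gene spans equal those of RefSeq when starts count from 0 and 456 when they count from 1. Python 3.11.15, pandas 2.3.3, numpy 2.4.6 and matplotlib 3.10.9 were used. The size rule was run on simulated data with planted changes, which checks the code and not the calls made here. The alternatives were other pseudocounts, filters, fold sizes, scalings and references, and, added after seeing the data, leaving out records of small RNAs.

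Depth was estimated from low values. The genes used were among 3967 with 1 annotated transcript of at least 2500 bases. In each column, FPKM times bases was kept where it lay in a chosen window of 12 to 40. The median of these values, taken as 1 fragment, was 22.9 to 29.2 per column. The choice of window bounds this median, and averaging over replicates also makes the estimate rough. A transcript length was found for 37 of the 39 genes, and Ero1l and Ero1lb, without one, have no estimate. Among the tested members with a length the fewest fragments by this estimate were 402, for Sdf2l1 with the fusion at 6 h. That is a counting error of 5.0%, which depends on the window and does not cover the spread between replicates.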

Additional observations from a re-analysis of the deposited data

Results flagged for a closer look

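In 2 roles every tested gene lay above PBS with the fusion at 3 h and below PBS at 6 h. These roles were picked by this pattern and hold only 3 and 2 genes. As deposited, the pattern was also found in 62.2% of the 37 tested ER genes and 20.5% of all tested genes. Among genes of at least 50 FPKM it was found in 89.5% of the ER genes and 35.6% of all tested genes. It is thus not particular to these roles. The median log2 ratio of the 3 lectin chaperones was 0.22 at 3 h and -0.38 at 6 h. That of the secreted stress proteins Manf and Creld2 was 0.15 at 3 h and -0.53 at 6 h. Under quantile normalisation Canx and Manf were below 0 at 3 h. Neither difference between 3 h and 6 h was tested, since each group is 1 averaged column.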

How the results depend on the processing

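No paired analysis was possible because each group is 1 averaged column, and for the same reason no replicate could be left out. With a pseudocount of 5, 0 ER genes were lower with the fusion at 6 h, against PBS and against Omomyc. The higher and lower counts over all genes against PBS were then 381 and 154 at 3 h and 365 and 152 at 6 h, against 629 and 454, and 732 and 343, with a pseudocount of 1, and 759 and 704, and 934 and 512, with 0.1. With a 1.5-fold rule, 14 ER genes were higher at 3 h against PBS, where 15.7% of all tested genes were higher. At 6 h, 8 were higher and 5 lower than PBS, where 17.4% of all tested genes were higher and 15.2% lower. Against FPP-1746 the rule gave 11 higher at 3 h, where 14.7% of all tested genes were higher. At 6 h it gave 8 higher and 8 lower, where 17.0% were higher and 14.8% lower. Against Omomyc it gave 10 higher at 3 h, where 14.6% were higher. At 6 h it gave 8 higher and 5 lower, where 17.3% were higher and 14.7% lower. Between the times the rule gave 1 lower in PBS, where 1.86% of all tested genes were lower. With the fusion it gave 1 higher and 20 lower, where 17.8% were higher and 20.2% lower. Under quantile normalisation the 3 h median was 0.18 against PBS, 0.14 against FPP-1746 and 0.14 against Omomyc, and the fusion at 6 h against 3 h had 2 lower genes (4.95% of all tested genes were lower) and a median of -0.37. Eif2ak3 at 6 h ranged from 0.48 to 1.02 and was past 2-fold with a pseudocount of 0.1 (1.02). At 3 h it ranged from 1.12 to 2.05, and it was not among the genes tested at a mean of 5 FPKM. Over these alternatives Herpud1 ranged from 2.53 to 2.77 at 3 h and Ero1l from 1.23 to 1.43. Without records of small RNAs 10.0% and 9.92% of genes were past 2-fold against PBS at 3 h and 6 h, and no ER gene changed its call. Averaged columns limit every value here, and differences below 2-fold in particular may lie within the spread between replicates.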
